A study of Mus musculus with 18 samples.

Results

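The lung minus heart difference in gene expression was compared between induced endothelial cells (iECs) and native endothelial cells (ECs) from mouse. For each gene the difference between lung and heart ECs was subtracted from the difference between lung and heart iECs, on the log2 scale. The result is called the interaction here, and a positive value means that the gene leaned more towards the lung in iECs than in ECs. All 14864 genes with enough counts entered the test, in 12 samples: 3 lung iECs, 3 heart iECs, 3 lung ECs and 3 heart ECs. The series holds 18 samples in all. Its other 6 are control fibroblasts, 3 from lung and 3 from heart, which shared the fit and served as another view of the organ difference.

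Every culture was grown in EGM2, an endothelial growth medium, and was taken at day 7. The labels call the iECs SEG in the sample titles and do not say from which cells or with which factors they were made, nor the strain, age or sex of the mice. They also do not say whether the 3 samples of a group came from separate animals or cultures. The p-values thus set a difference only against the spread of samples within their groups, fitted over all 18 samples. That spread can be technical. Totals ranged from 17747632 to 23775372 estimated counts per sample, and 15928 to 17291 genes had a count. Levels are in CPM, counts scaled to a common library size by the trimmed mean of M values, and are compared between samples of 1 gene, not between genes.

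Endothelial cells line all blood vessels, and those of each organ carry a programme of their own. Part of that programme is positional: transcription factors laid down in the embryo, such as Tbx20 and Hand2 in the heart and Tbx4 and the Hox genes in the lung, stay on in adult cells and are shared with the neighbouring mesenchyme. Another part is endothelial, such as junction proteins, vascular growth factor receptors and the Notch ligands and receptors that mark arteries. The comparison asks for which of these genes iECs and native ECs of the same pair of organs differ.

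The labels were first checked against markers. Sox17, an arterial endothelial transcription factor, had 433, 430 and 562 CPM in lung iECs and 487, 433 and 478 CPM in heart iECs, against 13.4, 12.6 and 16.7 CPM in lung ECs and 6.86, 7.30 and 6.27 CPM in heart ECs. Its interaction was −1.03 ± 0.190 (SE; adjusted p = 0.000525), with organ differences of 0.03 in iECs and 1.06 in ECs. Erg, an ETS factor of endothelium, was likewise above the ECs in iECs, with 958, 955 and 1186 CPM in lung iECs and 1037, 972 and 1063 CPM in heart iECs, against 88.1, 80.2 and 88.2 CPM in lung ECs and 56.5, 45 and 52.9 CPM in heart ECs. Its interaction of −0.72 ± 0.226 (adjusted p = 0.0266) lost its call when 1 sample was left out. Counts per gene cannot tell copies supplied to cells from the cells' own, and the labels do not name the factors used. The Sox17 and Erg values in iECs may thus not be those of the cells' own genes, which was not tested. They are no measure of endothelial identity. Endothelial markers were present in both cell types but unevenly. Cldn5, a tight junction gene of endothelium, stayed under 1.1 CPM in all 6 iEC samples, against 45.4, 54.5 and 64.6 CPM in lung ECs and 28.3, 24.9 and 30.0 CPM in heart ECs. Fibroblast genes were read in the ECs too: Pdgfra, a receptor of mesenchymal cells, had 110, 99.7 and 111 CPM in lung ECs and 391, 492 and 465 CPM in heart ECs. Markers of macrophages were summed over 23 genes and reached 3230 to 4620 CPM in lung iECs, 376 to 435 CPM in heart iECs, 9370 to 11300 CPM in lung ECs and 355 to 463 CPM in heart ECs. A large part of each of these sums came from 1 gene, Lyz2, whose values are given further on. In lung and heart fibroblasts the same sum was 1360 to 1720 CPM and 267 to 307 CPM. Epithelial markers, over 17 genes, came to 177 to 198 CPM in lung ECs and under 20 CPM in every other group. Cardiomyocyte markers, over 14 genes, came to 2.23 to 3.33 CPM in lung iECs and 8.8 to 10.2 CPM in heart iECs, against 3.51 to 5 CPM in lung ECs and 65.2 to 79.2 CPM in heart ECs. Pericyte markers, over 10 genes, came to 230 to 360 CPM in lung iECs and 751 to 804 CPM in heart iECs, against 163 to 205 CPM in lung ECs and 639 to 700 CPM in heart ECs. The part these cells play in the results was not tested. Replicate 3 of the lung iECs was high, and replicate 3 of the lung ECs low, in inflammatory genes, which bears on the results for chemokine, acute-phase and interferon genes given further on.

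The interaction was called for 3864 genes, or 26.0% of those tested, at an adjusted p under 0.05 (edgeR quasi-likelihood test, Benjamini-Hochberg). It was positive for 2049 genes (13.8%) and negative for 1815 (12.2%), called higher and lower here, with a median of −0.0089 over all genes tested. A test against a log2 difference of 1 was passed by 714 genes, or 4.80%, of which 415 were positive (2.79%) and 299 negative (2.01%). The organ difference itself was called for 5607 genes (37.7%) in iECs, 7123 (47.9%) in ECs and 7204 (48.5%) in fibroblasts. The same interaction taken between iECs and fibroblasts was called for 3744 genes (25.2%), and it shares the iEC samples with the one described.

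The calls fell into classes by the organ difference within each cell type. In 1474 genes (38.1% of the calls) the organs differed in ECs only, and in 820 genes (21.2%) in iECs only. Both cell types showed an organ difference of the same sign but of unequal size in 965 genes (25.0%). In 514 genes (13.3%) both showed one and the signs were opposite. The remaining 91 genes (2.36%) differed between organs in neither cell type alone. An organ call in one cell type and not in the other is not by itself a difference between them. Here each gene counted in a class had also passed the test of the interaction.

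**Figure D1:**
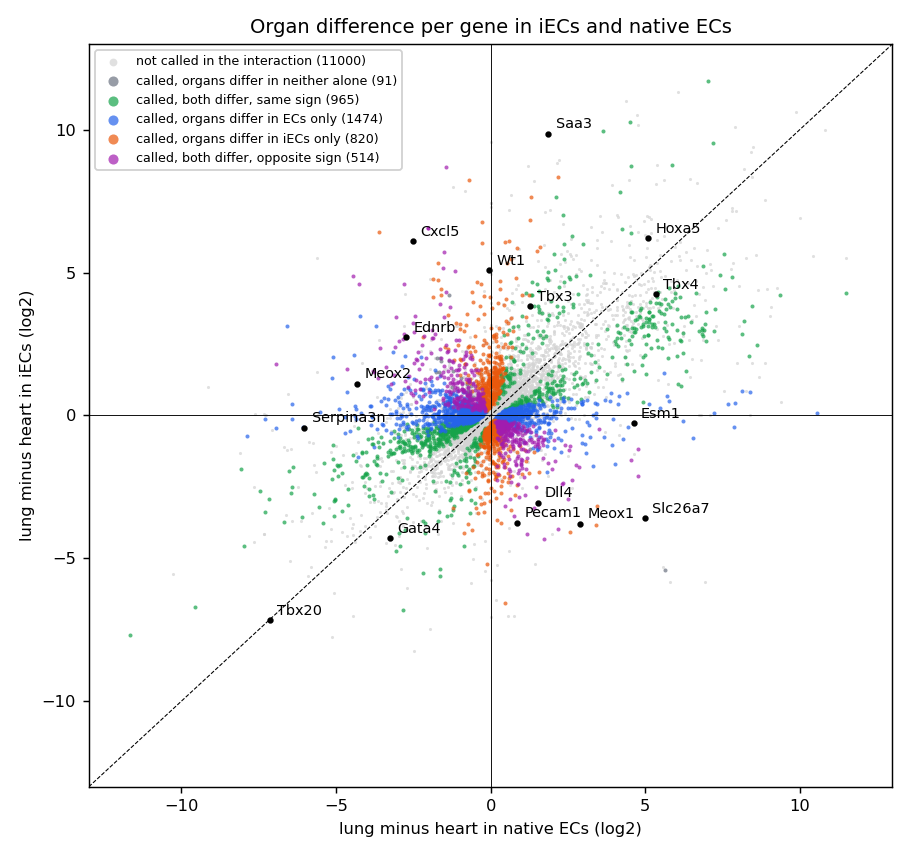
Each point is 1 of the 14864 genes tested, with the lung minus heart difference in native ECs on the horizontal axis and in iECs on the vertical axis, both in log2 units. The dashed line marks equal differences, and colours give the classes of the 3864 interaction calls. Tbx20 lies on the line, whereas Pecam1, Dll4 and Meox1 lie at the lower right and Ednrb and Meox2 at the upper left, where the signs are opposite.

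Across genes the organ difference of iECs followed that of ECs with r = 0.575 and rho = 0.468, and 67.0% of genes had the same sign. The genes are not independent of each other, and the correlation is a description. Fibroblasts gave nearly the same figures against iECs, with r = 0.574 and rho = 0.506 and the same sign in 67.7% of genes. The value depended on the genes kept: r with ECs was 0.343 without a filter on low counts and 0.647 among genes with at least 5 CPM in at least 3 samples. Of the 3599 genes higher in lung than in heart ECs, 45.4% had a call on the lung side in iECs as well and 7.17% had one on the heart side. In the other direction, of the 2803 genes higher in lung than in heart iECs, 58.3% had a call on the lung side in ECs and 9.13% one on the heart side. Over all genes tested, 18.9% were called on the lung side in iECs, and 24.2% on the lung side and 23.7% on the heart side in ECs.

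A single number for each sample was obtained by placing it on the line from the mean of heart ECs, set to 0, to the mean of lung ECs, set to 1. The line was drawn over the 2753 genes called between lung and heart ECs with at least a 2-fold difference, so EC positions are fixed by construction. Lung iECs stood at 0.685, 0.660 and 0.727, and heart iECs at 0.151, 0.142 and 0.156. The groups did not overlap, and their difference of 0.541 was about that share of the distance between native lung and heart ECs. Lung fibroblasts stood at 0.359, 0.335 and 0.341 and heart fibroblasts at −0.127, −0.132 and −0.127, a difference of 0.474. An exact two-sided permutation test gave p = 0.1 for each pair, the smallest value that 3 against 3 samples can reach. Without the genes of the marker lists for macrophages and other cell types the iEC difference was 0.543. That left 2697 of the 2753 genes, and the list of fibroblast and matrix genes was not taken out. With so few genes removed, the value cannot show what part other cell types play, which was not tested.

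**Figure D2:**
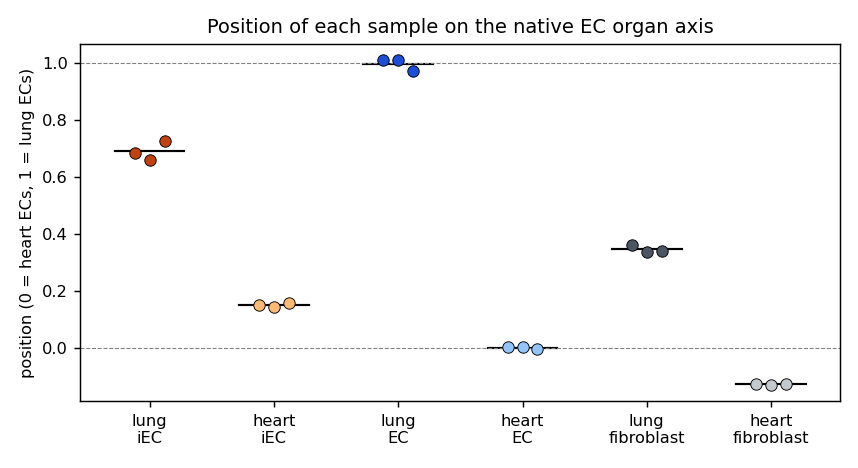
Position of each of the 18 samples on the line from heart ECs (0) to lung ECs (1), with 1 point per sample and a bar at the group mean. The lung iECs lie between 0.660 and 0.727 and the heart iECs between 0.142 and 0.156, while the fibroblasts of each organ lie lower.

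Most of the positional transcription factors named next differed between organs in both cell types, some of them by unequal amounts. Tbx20 (ENSMUSG00000031965; chromosome 9, 24718138 to 24774303, minus strand of GRCm38), a T-box factor of the heart, had 3.56, 2.96 and 3.47 CPM in lung iECs and 474, 483 and 487 CPM in heart iECs. It had 4.43, 3.63 and 5.54 CPM in lung ECs and 546, 706 and 671 CPM in heart ECs. Both cell types showed the same large gap between organs, and the interaction was −0.03 ± 0.182 (adjusted p = 0.920). Hand2, a basic helix-loop-helix factor of heart development, had 1.90, 1.89 and 2.70 CPM in lung iECs and 44.1, 42.0 and 39.2 CPM in heart iECs, against 7.00, 7.17 and 7.96 CPM in lung ECs and 115, 106 and 108 CPM in heart ECs. Its level was lower in iECs than in ECs of the same organ, yet the organ differences of −4.27 in iECs and −3.89 in ECs were not called apart (interaction −0.38 ± 0.144, adjusted p = 0.0583). Gata4, a zinc finger factor of the heart, had the larger organ difference in iECs, with −4.29 against −3.25 in ECs (interaction −1.04 ± 0.219, adjusted p = 0.00174). In the other direction Tcf21, a factor of cardiac and lung fibroblast progenitors, was higher in heart than in lung by 3.34 in iECs and by 4.80 in ECs (log2; interaction 1.47 ± 0.219, adjusted p = 7.28e-05).

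Several factors of the lung mesenchyme were higher in lung than in heart samples of both cell types. Tbx4 had 52.3, 45.7 and 55.3 CPM in lung iECs and 2.93, 2.75 and 2.46 CPM in heart iECs, against 21.8, 18.9 and 20.2 CPM in lung ECs and 0.358, 0.823 and 0.333 CPM in heart ECs. Every lung sample lay above every heart sample, and the call of the interaction (−1.10 ± 0.319, adjusted p = 0.0158) was lost when 1 sample was left out. Hoxa5, a Hox gene needed for lung development, had 25.1, 29.1 and 23.1 CPM in lung iECs and 0.222, 0.5 and 0.302 CPM in heart iECs, against 17.2, 19.4 and 23.8 CPM in lung ECs and 0.851, 0.165 and 0.666 CPM in heart ECs. Its interaction of 1.09 ± 0.460 was not called (adjusted p = 0.0903). Tbx3 and Foxf1, a T-box and a forkhead factor of the lung mesenchyme, had a larger lung to heart difference in iECs than in ECs. For Tbx3 the difference was 3.83 in iECs and 1.28 in ECs (interaction 2.55 ± 0.292, adjusted p = 3.62e-06), and for Foxf1 it was 3.50 and 1.89 (interaction 1.61 ± 0.222, adjusted p = 2.76e-05).

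Counted over lists, of 22 tested lung mesenchyme transcription factors 8 were called higher in the interaction and 1 lower, with a median of 0.57. For 19 tested heart mesenchyme transcription factors the counts were 7 and 1, with a median of 0.12. Together 40.9% of the lung and 42.1% of the heart factors were called, against 26.0% of all genes tested. Of 23 tested Hox genes 17 were higher in lung than in heart iECs and 21 in lung than in heart ECs, while 4 were called higher and 2 lower in the interaction, 26.1% together against 26.0% of all genes tested. Without heart iEC replicate 3 the number called higher was 2 rather than 4. Among those called higher, Hoxb7 and Hoxb8 had 0 counts over the heart iECs and Hoxb5 had 2. Their fitted interactions thus depend on the prior count. The Hox genes called lower were Hoxd9 and Hoxd8, of the D cluster, which were higher in heart than in lung iECs and higher in lung than in heart ECs. Hoxd9 had 0.142, 0.172 and 0.289 CPM in lung iECs and 1.38, 1.92 and 0.950 CPM in heart iECs, against 13.2, 11.7 and 12.4 CPM in lung ECs and 5.83, 5.71 and 5.66 CPM in heart ECs (interaction −3.90 ± 0.530, adjusted p = 2.32e-05). Wt1, the Wilms tumour factor of mesothelium and epicardium, differed between organs in iECs only. It had 7.30, 8.85 and 9.07 CPM in lung iECs and 0.0887, 0.334 and 0.302 CPM in heart iECs, against 9.24, 11.1 and 12.4 CPM in lung ECs and 11.2, 14.4 and 8.33 CPM in heart ECs (interaction 5.12 ± 0.418, adjusted p = 5.92e-08).

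Among endothelial genes the organ difference was often unequal and in part of opposite sign. Both cell types had a call and the signs were opposite in 11 of 30 tested pan-endothelial genes, 5 of 26 endothelial transcription factors and 5 of 23 arterial genes. Over all genes tested this held for 514 of 14864. Pecam1 (ENSMUSG00000020717; chromosome 11, 106654217 to 106750628, minus strand), the endothelial adhesion molecule CD31, had 7.78, 7.52 and 6.08 CPM in lung iECs and 89.8, 97.3 and 102 CPM in heart iECs. It had 583, 546 and 556 CPM in lung ECs and 318, 299 and 311 CPM in heart ECs. No pair of groups overlapped, and the organ difference was −3.75 ± 0.103 in iECs and 0.86 ± 0.0875 in ECs, an interaction of −4.61 ± 0.134 (adjusted p = 1.5e-13). In bulk samples fewer cells of a type and less RNA per cell cannot be told apart. The fibroblasts showed a heart-sided difference too, of −4.63, with 1.72, 2.30 and 1.72 CPM in lung fibroblasts and 51.5, 44.9 and 46.3 CPM in heart fibroblasts.

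Cdh5, the VE-cadherin of endothelial junctions, did not pass the test between the iECs, with 443, 453 and 498 CPM in lung iECs and 556, 540 and 569 CPM in heart iECs. In ECs it had 1016, 1021 and 960 CPM in the lung and 496, 425 and 474 CPM in the heart. Its organ difference was −0.26 in iECs (adjusted p = 0.0798) and 1.10 in ECs, and its interaction −1.36 ± 0.157 (adjusted p = 3.75e-06). Mmrn2, an endothelial matrix protein, was scarce in lung iECs, at 0.0948, 0.301 and 0.675 CPM, and had 4.13, 4.71 and 5.87 CPM in heart iECs. Native ECs had 184, 186 and 155 CPM in the lung and 146, 128 and 139 CPM in the heart (interaction −4.12 ± 0.396, adjusted p = 1.13e-06). Of 30 tested pan-endothelial genes 21 were called lower in the interaction and 2 higher, with a median of −1.5, where 12.2% of all genes tested were lower and 13.8% higher. Within each cell type, 6 of the 30 were called higher in lung iECs and 18 higher in heart iECs, whereas 19 were higher in lung ECs and 7 higher in heart ECs. In fibroblasts 1 was higher in the lung and 28 in the heart, where 24.6% and 23.9% of all genes tested were. The same shares over all genes were 18.9% and 18.9% in iECs, and 24.2% and 23.7% in ECs. The 2 genes called higher in the interaction were Flt1, a VEGF receptor (1.53 ± 0.201, adjusted p = 2.02e-05), and Esam, an endothelial adhesion molecule (1.17). Kdr, the main VEGF receptor, and Emcn, endomucin, had interactions of −0.23 and 0.37, both with an adjusted p above the threshold.

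Endothelial transcription factors were divided, with 12 of 26 tested called lower and 7 higher and a median of −0.51. Over all genes tested 12.2% were called lower and 13.8% higher. Meox1 and Meox2, related homeobox factors, moved in opposite directions. Meox1 had 0.284, 0.558 and 0.386 CPM in lung iECs and 5.72, 5.42 and 6.30 CPM in heart iECs, against 30.7, 32.8 and 24.4 CPM in lung ECs and 2.55, 4.56 and 4.72 CPM in heart ECs (interaction −6.70 ± 0.386, adjusted p = 8.04e-10). Meox2 had 7.30, 8.03 and 7.67 CPM in lung iECs and 3.42, 3.34 and 3.93 CPM in heart iECs, against 0.195, 0.326 and 0.417 CPM in lung ECs and 5.83, 6.70 and 6.77 CPM in heart ECs (interaction 5.42 ± 0.284, adjusted p = 2.44e-10). The native pattern, Meox1 in the lung and Meox2 in the heart, was thus turned round in the iECs for both genes. Tal1, a factor of blood and endothelial progenitors, had 1 count over the 3 lung iEC samples and 2.08, 2.17 and 1.77 CPM in heart iECs. In ECs it had 16, 13.8 and 13.2 CPM in the lung and 10.1, 9.72 and 11.3 CPM in the heart.

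**Figure D3:**
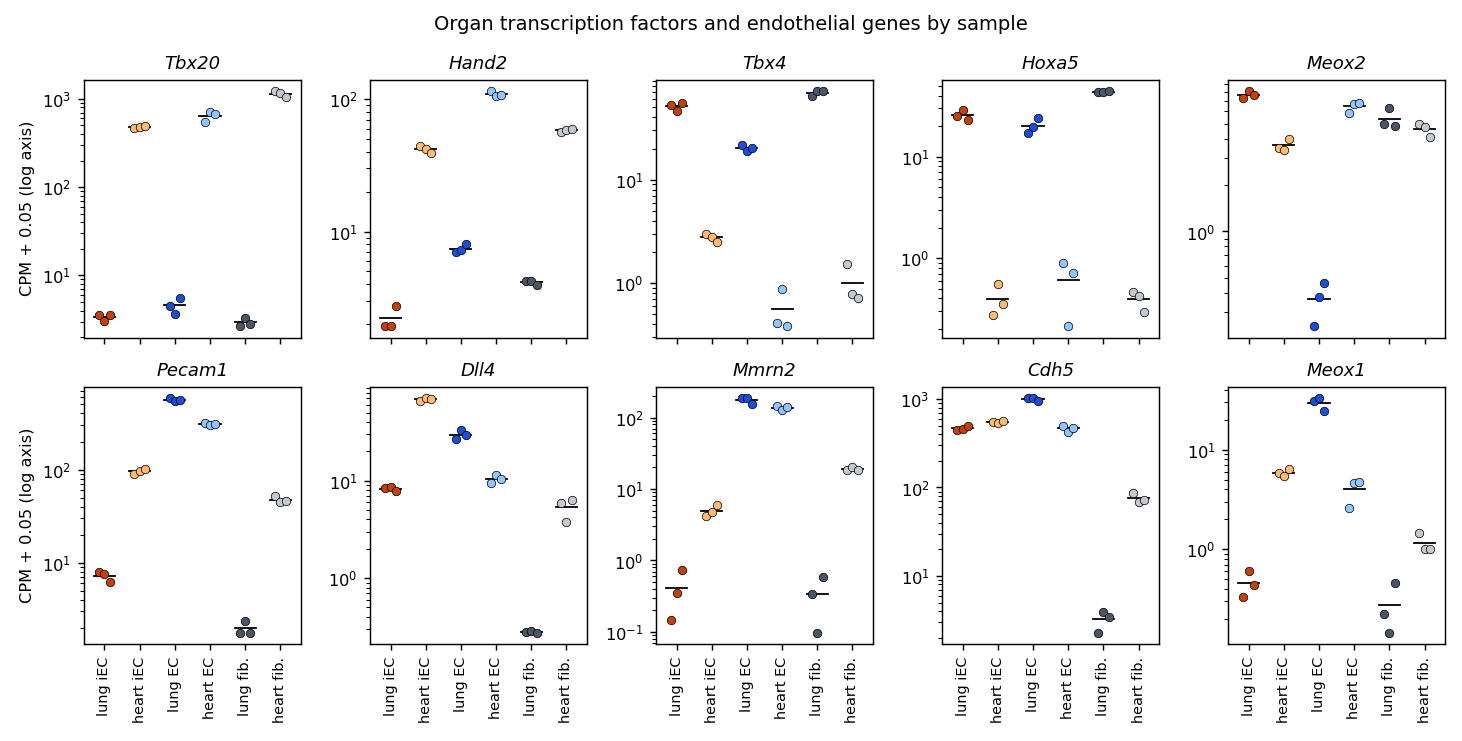
CPM plus 0.05 on a log axis for positional and endothelial genes, with 1 point per sample and a bar at the group mean, for lung and heart iECs, ECs and fibroblasts. Tbx20, Hand2, Tbx4 and Hoxa5 step the same way between organs in every cell type, whereas Pecam1, Dll4, Mmrn2 and Meox1 are lower in lung than in heart iECs and higher in lung than in heart ECs; for Mmrn2 the EC difference was not called.

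Arterial and Notch genes were mostly called lower. Of 23 tested arterial genes 14 were called lower in the interaction and 3 higher, with a median of −1.7. In iECs 19 of them were higher in the heart and 1 in the lung, while in ECs 8 were higher in the heart and 7 in the lung. Over all genes tested 12.2% were called lower and 13.8% higher in the interaction. The heart and lung shares over all genes were 18.9% and 18.9% in iECs, and 23.7% and 24.2% in ECs. Of 19 tested Notch pathway genes 11 were called lower and 2 higher, with a median of −1.5; the lists share members such as Dll4, Jag1 and Hey1. Without lung EC replicate 3 the Notch genes called higher were 4. Dll4 (ENSMUSG00000027314; chromosome 2, 119325784 to 119335962, plus strand), the Notch ligand of arteries and sprouting tips, had 8.44, 8.59 and 7.72 CPM in lung iECs and 66.2, 70.2 and 68.8 CPM in heart iECs. It had 26.5, 33.1 and 29.5 CPM in lung ECs and 9.37, 11.3 and 10.4 CPM in heart ECs. The organ order was reversed with no overlap in either pair (interaction −4.57 ± 0.189, adjusted p = 1.38e-11). Sema3g, a semaphorin of arterial endothelium, had 11.1, 14.2 and 10.2 CPM in lung iECs and 139, 135 and 138 CPM in heart iECs, against 17.0, 19.5 and 25.3 CPM in lung ECs and 13.9, 9.77 and 12.8 CPM in heart ECs (interaction −4.29 ± 0.239, adjusted p = 1.01e-09). Notch4, an endothelial Notch receptor, was 2.04 lower in lung than in heart iECs on the log2 scale and 0.25 higher in lung than in heart ECs (interaction −2.29 ± 0.123). The ligand gene Jag1 and the target gene Hey1 differed between organs in iECs only, with interactions of −1.74 and −2.57. Bmx, a tyrosine kinase of arterial endothelium, was higher in the heart in both cell types, by 5.37 in iECs and by 1.65 in ECs (log2). Rbpj, the DNA-binding partner of Notch, and the ligand gene Dll1 were called in the other direction, with interactions of 1.28 and 2.67.

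The promoters of Dll4 and Sema3g are shown because both genes turned round their organ difference. Each runs from 250 bases before to 50 bases after the gene start in RefSeq on GRCm38.p6, at chr2:119325534-119325833 and chr14:31217623-31217922, both on the plus strand, 5′ to 3′, with capitals for AGGAAG, a core of sites bound by ETS factors such as Erg, on either strand (reverse complement CTTCCT).
Dll4: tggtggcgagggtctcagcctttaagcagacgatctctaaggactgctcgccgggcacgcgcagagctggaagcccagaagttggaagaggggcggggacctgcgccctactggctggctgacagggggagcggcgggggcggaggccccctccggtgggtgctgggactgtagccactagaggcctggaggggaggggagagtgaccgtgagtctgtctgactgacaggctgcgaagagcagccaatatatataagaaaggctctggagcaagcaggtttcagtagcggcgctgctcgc
Sema3g: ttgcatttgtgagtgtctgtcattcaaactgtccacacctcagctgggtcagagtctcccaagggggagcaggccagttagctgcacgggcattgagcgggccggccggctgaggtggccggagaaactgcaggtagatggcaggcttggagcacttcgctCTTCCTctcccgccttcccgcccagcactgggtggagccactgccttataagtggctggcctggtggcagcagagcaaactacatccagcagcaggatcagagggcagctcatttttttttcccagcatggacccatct
Sema3g held 1 match and Dll4 none. Of the 20 arterial genes matched to a RefSeq promoter, 5 held the motif (Gja5, Notch4, Sema3g, Nrp1 and Fbln5), against 38.4% of 27025 genes. A match is a description of the letters, and the absence of one says nothing of binding.

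Other vascular signals varied one by one. Esm1, a secreted proteoglycan of endothelial tip cells, differed between organs in ECs only, with 11.6, 12.9 and 11.3 CPM in lung iECs and 11.7, 16.2 and 15.2 CPM in heart iECs, against 175, 191 and 148 CPM in lung ECs and 8.33, 6.26 and 6.11 CPM in heart ECs (interaction −4.89 ± 0.278, adjusted p = 1.88e-09). Lung ECs stood alone, and the 2 kinds of iEC overlapped. Ednrb, the endothelin B receptor, is counted below among genes known from lung endothelium, but here it was higher in heart than in lung ECs. Its interaction went the other way from that of Esm1. Ednrb had 30.1, 42.4 and 34 CPM in lung iECs and 4.88, 5.46 and 5.61 CPM in heart iECs, against 13, 11.5 and 20.8 CPM in lung ECs and 101, 106 and 93.7 CPM in heart ECs (interaction 5.47 ± 0.325, adjusted p = 6.27e-09). Angptl4, an inhibitor of lipoprotein lipase, had 118, 96.0 and 222 CPM in lung iECs and 7.59, 8.13 and 8.80 CPM in heart iECs. In ECs it overlapped between organs, with 278, 363 and 153 CPM in the lung and 281, 269 and 262 CPM in the heart (interaction 4.18 ± 0.452, adjusted p = 1.29e-05). Of 19 tested VEGF and angiopoietin genes 8 were called lower and 7 higher, with a median of −0.47. Over all genes tested 12.2% were called lower and 13.8% higher. Lymphatic genes followed the pan-endothelial ones, with 6 of 12 called lower and 1 higher, among them Mmrn1 (−2.53), Reln (−2.36) and Prox1, the master factor of lymphatic fate (−1.66). These genes were much lower in iECs than in ECs of either organ: Prox1 averaged 1.72 CPM in lung iECs and 2.51 CPM in heart iECs, against 46.4 CPM in lung ECs and 21.4 CPM in heart ECs. Of 35 tested genes known from lung endothelium 12 were called higher and 9 lower, and of 18 known from heart endothelium 6 and 5, with medians of 0.11 and −0.32. Together 60% and 61.1% of these lists were called, against 26.0% of all genes tested. In ECs 17 of the lung list were higher in the lung and 11 in the heart, and of the heart list 7 and 6. In iECs these counts were 13 and 12, and 9 and 7. Over all genes tested 24.2% were higher in the lung and 23.7% in the heart in ECs, and 18.9% each in iECs. The heart list was thus not mainly higher in the heart in these ECs. The 5 heart endothelial genes called lower were 3 without lung iEC replicate 2 or heart EC replicate 2.

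Of the genes whose organ difference had opposite signs in iECs and ECs, more were called in fibroblasts with the sign of the iECs than with that of the ECs. The fibroblast samples shared the fit behind the classes, and a fit to the 12 iEC and EC samples alone gave 567 such genes. Among the 514 genes 45.7% were called in fibroblasts with the sign of the iECs and 21% with the sign of the ECs. Over all genes tested, 37.9% were called in fibroblasts with the sign of the iEC difference and 35.1% with that of the EC difference. All 11 pan-endothelial genes of this class, and 4 of the 5 arterial ones, were called in fibroblasts with the sign of the iECs, as were 3 of the 5 Notch pathway genes. Over the whole lists, whatever the class, that held for 24 of 30 pan-endothelial, 14 of 23 arterial and 12 of 19 Notch pathway genes. Of the 820 genes that differed in iECs only, 53% were called in fibroblasts with that sign and 9.39% with the other. Of the 1474 that differed in ECs only, 35.0% were called in fibroblasts with the sign of the ECs and 16.8% with the other.

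**Figure D4:**
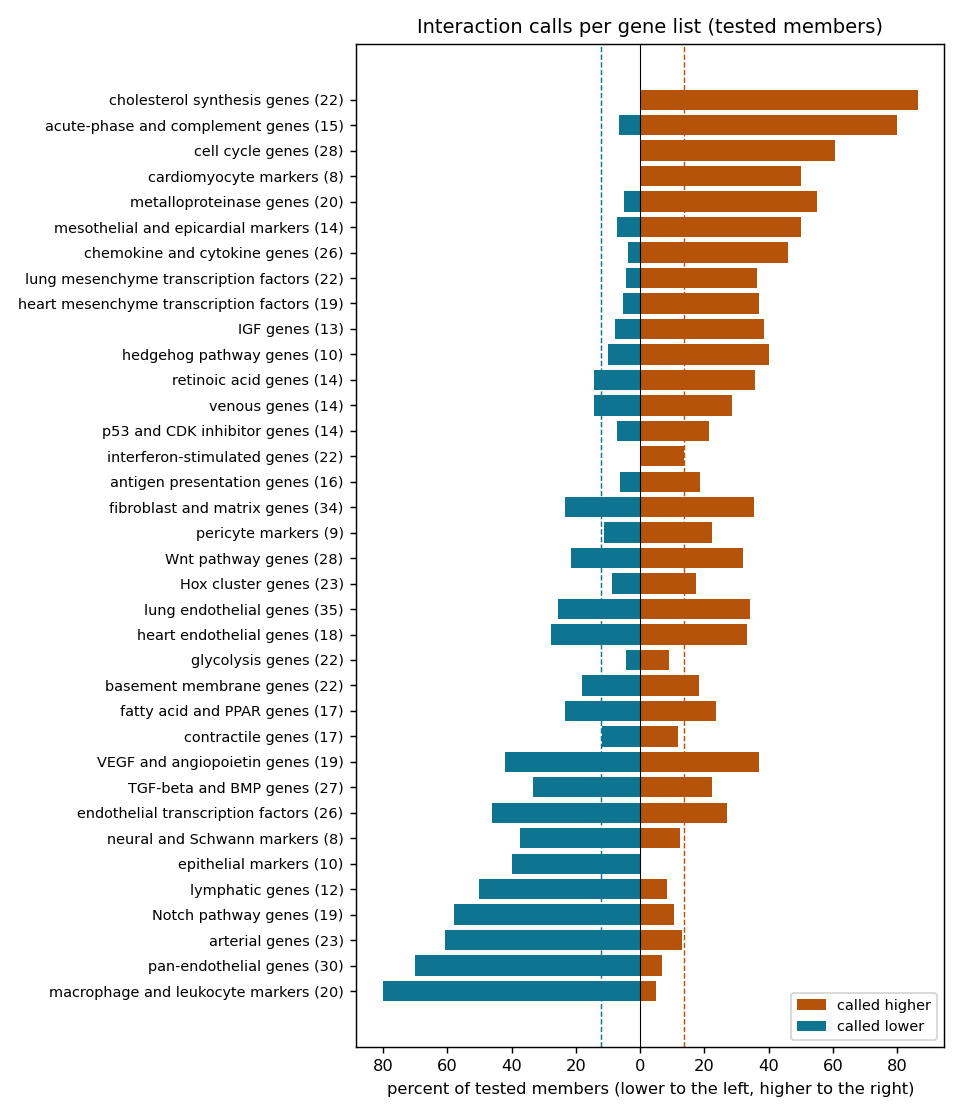
Percent of the tested members of each gene list (number in brackets) called higher, to the right, and lower, to the left, in the interaction. Dashed lines mark 13.8% and 12.2%, the shares over all 14864 genes tested. Cholesterol synthesis, acute-phase and cell cycle genes extend furthest to the right among the lists of at least 15 genes, and macrophage, pan-endothelial and arterial genes furthest to the left.

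Genes of cholesterol synthesis moved together. Of 22 tested 19 were called higher in the interaction and 0 lower, with a median of 0.92, against 13.8% called higher over all genes. In ECs 17 of the 22 were higher in the heart and 1 in the lung, with a median of −0.77. In iECs 4 were higher in the lung and 1 in the heart, with a median of 0.17. Hmgcs1 (ENSMUSG00000093930; chromosome 13, 119690379 to 119708260, plus strand), the enzyme that makes the precursor of mevalonate, had 108, 98.4 and 90.8 CPM in lung iECs and 94.1, 98.4 and 101 CPM in heart iECs. It had 92.7, 78.2 and 127 CPM in lung ECs and 204, 203 and 193 CPM in heart ECs (interaction 1.03 ± 0.172, adjusted p = 0.000208). Heart ECs stood above the other 3 groups, which overlapped, and heart fibroblasts were higher still at 289, 306 and 280 CPM. Idi1, the isopentenyl diphosphate isomerase, had 64.7, 56.6 and 50.8 CPM in lung iECs and 45.6, 55.9 and 50.8 CPM in heart iECs, against 45.3, 36.6 and 73.0 CPM in lung ECs and 105, 120 and 108 CPM in heart ECs (interaction 1.28 ± 0.258, adjusted p = 0.00165). Lung EC replicate 3 was the highest of its group for both genes. Without it and lung iEC replicate 3 together, 20 of the 22 were called higher. Srebf2, the sterol-sensing factor that drives these genes, had a smaller interaction of 0.47.

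The promoters of Hmgcs1 and Idi1, again 250 bases before to 50 after the RefSeq start on GRCm38.p6 (chr13:119690101-119690400 and chr13:8885356-8885655, plus strand, 5′ to 3′), are shown as those of 2 genes that moved together. Capitals mark CACCCCAC, a core of the sterol regulatory element, on either strand (reverse complement GTGGGGTG).
Hmgcs1: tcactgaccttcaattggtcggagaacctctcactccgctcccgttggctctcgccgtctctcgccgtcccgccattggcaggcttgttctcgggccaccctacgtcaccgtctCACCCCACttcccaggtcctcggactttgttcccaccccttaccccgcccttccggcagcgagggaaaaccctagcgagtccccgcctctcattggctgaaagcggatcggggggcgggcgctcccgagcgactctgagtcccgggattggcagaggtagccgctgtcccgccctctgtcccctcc
Idi1: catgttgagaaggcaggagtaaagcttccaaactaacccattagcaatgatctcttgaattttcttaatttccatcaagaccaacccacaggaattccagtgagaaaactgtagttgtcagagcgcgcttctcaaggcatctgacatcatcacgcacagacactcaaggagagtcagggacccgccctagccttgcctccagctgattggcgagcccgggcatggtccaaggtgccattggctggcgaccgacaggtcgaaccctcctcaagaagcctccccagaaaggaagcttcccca
Hmgcs1 held 1 match and Idi1 none. Of the 15 cholesterol synthesis genes matched to a RefSeq promoter, 1 held the motif, against 3.3% of 27025 genes.

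Of 28 tested cell cycle genes 17 were called higher in the interaction and 0 lower, with a median of 0.67, where 13.8% and 12.2% of all genes tested were. In iECs 26 of the 28 were higher in the lung, in ECs 10, and in fibroblasts 27, against 18.9%, 24.2% and 24.6% of all genes tested. Aurka, a kinase of the mitotic spindle, had 17.3, 15.6 and 14.2 CPM in lung iECs and 6.52, 5.04 and 6.95 CPM in heart iECs, against 14.2, 12.2 and 15.9 CPM in lung ECs and 12.1, 10.8 and 13.7 CPM in heart ECs (interaction 1.14 ± 0.203, adjusted p = 0.000387). Heart iECs lay below the lung iECs and both groups of ECs. Birc5, which encodes survivin, had the largest interaction of the list (1.38 ± 0.292, adjusted p = 0.00171), and Mki67, the proliferation marker, one of −0.01, with organ differences of 1.33 in iECs and 1.34 in ECs.

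Fibroblast and matrix genes were mostly higher in heart than in lung, 25 of 34 in iECs and 26 of 34 in ECs, but by unequal amounts. Over all genes tested 18.9% were higher in heart iECs and 23.7% in heart ECs. Of the 34 tested 12 were called higher in the interaction and 8 lower, with a median of 0.25, and of 20 metalloproteinase genes and their inhibitors 11 and 1, with a median of 1. The interaction was called higher for 13.8% and lower for 12.2% of all genes tested. Col6a1, a chain of collagen VI, had 160, 132 and 170 CPM in lung iECs and 294, 318 and 309 CPM in heart iECs, against 52.0, 48.8 and 73.2 CPM in lung ECs and 753, 882 and 869 CPM in heart ECs (interaction 2.85 ± 0.180, adjusted p = 1.88e-09). The order of the organs was the same and the gap wider in ECs. Pdgfra, given above for the ECs, had 258, 201 and 197 CPM in lung iECs and 152, 194 and 176 CPM in heart iECs (interaction 2.40 ± 0.200, adjusted p = 9.13e-08). Mmp3, stromelysin, had 21.1, 17.6 and 38.1 CPM in lung iECs and 70.0, 88.5 and 85.0 CPM in heart iECs, against 45.0, 78.0 and 21.7 CPM in lung ECs and 2228, 2035 and 1865 CPM in heart ECs (interaction 3.73 ± 0.511, adjusted p = 0.000115). Fn1, fibronectin, was called the other way (−1.09), as was Col15a1 (−1.71). Among contractile genes 14 of 17 tested were higher in lung than in heart in iECs and 14 in ECs, against 18.9% and 24.2% of all genes tested. In each direction of the interaction 2 contractile genes were called, 23.5% together, near the 26.0% of all genes tested. Actg2, the enteric smooth muscle actin, was higher in the lung by 6.06 in iECs and by 6.14 in ECs (log2). Mylk, myosin light chain kinase, differed in iECs only, with 140, 136 and 83.4 CPM in lung iECs and 7.19, 7.38 and 9.11 CPM in heart iECs, against 45.0, 37.9 and 69.8 CPM in lung ECs and 35.9, 56.1 and 36.2 CPM in heart ECs (interaction 3.67 ± 0.381, adjusted p = 6.61e-06). Without lung EC replicate 3 the number of contractile genes called higher was 4 rather than 2.

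Acute-phase and complement genes gave some of the largest interactions. Of 15 tested 12 were called higher and 1 lower, with a median of 3.7, and without replicate 3 of the lung iECs and of the lung ECs the counts were 10 and 0. Over all genes tested 13.8% were called higher and 12.2% lower. Serpina3n, a secreted protease inhibitor of the acute phase, had 615, 542 and 981 CPM in lung iECs and 848, 1126 and 909 CPM in heart iECs, against 74.4, 97.7 and 54.3 CPM in lung ECs and 5104, 4937 and 4716 CPM in heart ECs (interaction 5.59 ± 0.309, adjusted p = 3.27e-09). The iEC groups overlapped and lay between the EC groups, which did not. It belongs to a cluster of near-identical genes with Serpina3c, Serpina3f, Serpina3g and Serpina3m, among which reads may be split with uncertainty. C3, the central complement component, had 262, 110 and 370 CPM in lung iECs and 106, 134 and 147 CPM in heart iECs, against 620, 699 and 315 CPM in lung ECs and 3871, 3893 and 3667 CPM in heart ECs (interaction 3.75 ± 0.530, adjusted p = 0.000157). Serping1, the C1 inhibitor, C1s1 and C1ra, the proteases it blocks, and C4b were called higher too, with interactions of 3.85, 3.34, 3.10 and 2.58. Saa3, an inflammatory apolipoprotein, had 301, 22.5 and 858 CPM in lung iECs and 0.532, 0.5 and 0.216 CPM in heart iECs, against 2119, 3617 and 368 CPM in lung ECs and 632, 553 and 486 CPM in heart ECs. Its interaction was 8.0 ± 1.8 (adjusted p = 0.00568). Heart iECs were far below all other samples, and lung samples of both kinds spread widely.

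Chemokine genes shared that spread. Of 26 tested chemokine and cytokine genes 12 were called higher and 1 lower, with a median of 3.6, and 10 and 1 without replicate 3 of both. Over all genes tested 13.8% were called higher and 12.2% lower. Cxcl5, a neutrophil attractant, had 13.2, 6.83 and 175 CPM in lung iECs and 0.665, 1.08 and 1.08 CPM in heart iECs, against 97.1, 135 and 6.67 CPM in lung ECs and 516, 419 and 423 CPM in heart ECs (interaction 8.6 ± 1.84, adjusted p = 0.00406). Replicate 3 was the highest lung iEC and the lowest lung EC. Ccl2, which draws monocytes, had 292, 115 and 1004 CPM in lung iECs and 53.5, 50.5 and 53 CPM in heart iECs, against 1026, 1031 and 308 CPM in lung ECs and 1541, 1263 and 1296 CPM in heart ECs (interaction 3.96 ± 0.937, adjusted p = 0.00756). Cxcl12, a chemokine of stroma and endothelium, did not show the spread, with 174, 130 and 147 CPM in lung iECs and 57.6, 57.5 and 62.0 CPM in heart iECs, against 106, 97.8 and 107 CPM in lung ECs and 382, 433 and 364 CPM in heart ECs (interaction 3.28 ± 0.147, adjusted p = 3.9e-11). Of 22 tested interferon-stimulated genes 3 were called higher, Ifit2, Mx1 and Cxcl10, and 0 lower, with a median of 1.1. This is 13.6% of the list, near the 13.8% called higher over all genes tested. Each of the 3 lost its call when 1 sample was left out, and the count ranged from 0 to 5 over those fits. It was 0 without lung iEC replicate 3, heart iEC replicate 3 or heart EC replicate 1, 1 without heart iEC replicate 1 or 2 or lung EC replicate 1, and 5 without lung iEC replicate 2.

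Of 20 tested macrophage and leukocyte genes 16 were called lower in the interaction and 1 higher, with a median of −1.7, and 19 were higher in lung than in heart in iECs and 19 in ECs. Over all genes tested 12.2% were called lower and 13.8% higher in the interaction. The lung was higher for 18.9% of all genes in iECs and 24.2% in ECs, and the heart for 18.9% and 23.7%. Lyz2, lysozyme of myeloid cells, had 2603, 1822 and 3002 CPM in lung iECs and 231, 271 and 275 CPM in heart iECs, against 7363, 7862 and 6118 CPM in lung ECs and 182, 278 and 190 CPM in heart ECs (interaction −1.78 ± 0.259, adjusted p = 8.58e-05). Cd14, a myeloid receptor that other cells also express, was the gene called higher (4.26), and lost its call when 1 sample was left out. Epithelial genes were lower in 4 of 10 cases and higher in 0. Among those tested, Cldn4, Cldn7, Epcam and Esrp1 had 0 to 2 counts over the heart iECs and over the heart ECs. The fitted differences of these genes thus depend on the prior count. Cdh1, E-cadherin, had 0.569, 1.03 and 0.724 CPM in lung iECs and 0.0444, 0.0834 and 0.0432 CPM in heart iECs, against 48.7, 42.2 and 44.9 CPM in lung ECs and 0.403, 0.329 and 0.333 CPM in heart ECs. Among mesothelial genes 7 of 14 were called higher and 1 was called lower, with a median of 2.5. In iECs 7 of them were higher in the lung and 2 in the heart, and in ECs 3 were higher in the lung and 7 in the heart. Their summed level was 84.9 to 112 CPM in lung iECs, 156 to 165 CPM in heart iECs, 427 to 586 CPM in lung ECs and 523 to 756 CPM in heart ECs. In iECs the sum was higher in the heart, although more members were called higher in the lung. A few abundant genes can carry such a sum, so it does not measure mesothelial cells. Msln, mesothelin, had 3.13, 4.04 and 2.99 CPM in lung iECs and 0.665, 0.709 and 0.475 CPM in heart iECs, against 129, 144 and 200 CPM in lung ECs and 175, 223 and 159 CPM in heart ECs (interaction 2.69 ± 0.391, adjusted p = 9.81e-05). The part of these cells in the other results was not tested.

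**Figure D5:**
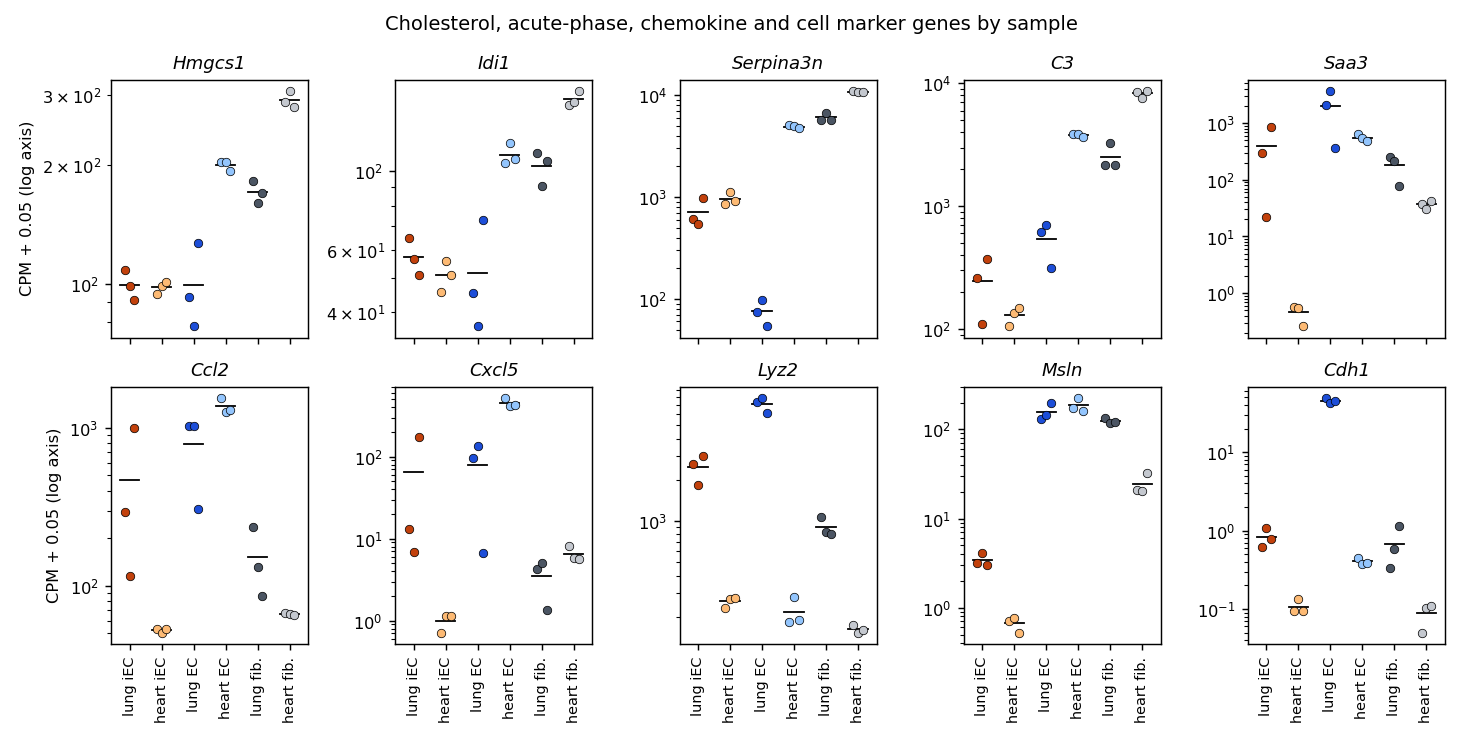
CPM plus 0.05 on a log axis for cholesterol, acute-phase, chemokine and cell marker genes, with 1 point per sample and a bar at the group mean. Heart ECs stand above lung ECs for Hmgcs1, Idi1, Serpina3n and C3. For Saa3, Ccl2 and Cxcl5 replicate 3 is the highest lung iEC and the lowest lung EC. In Saa3 lung iEC replicate 2, at 22.5 CPM, lies far below the other lung iECs.

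Signalling pathways of the mesenchyme were mixed. Of 28 tested Wnt pathway genes 9 were called higher and 6 lower, where 13.8% and 12.2% of all genes tested were. Rspo3, a Wnt amplifier, was higher in lung than in heart by 5.49 in iECs and by 2.38 in ECs (log2; interaction 3.11 ± 0.190, adjusted p = 1.48e-09). Dkk2, a Wnt antagonist, had 23.9, 28.1 and 17.6 CPM in lung iECs and 52.0, 55.7 and 49.8 CPM in heart iECs, against 16.2, 12.3 and 26.8 CPM in lung ECs and 0.583, 0.549 and 0.888 CPM in heart ECs (interaction −5.95 ± 0.445, adjusted p = 8.62e-08). Of 27 tested TGF-beta and BMP genes 6 were called higher and 9 lower, among them Tgfbi, a matrix protein induced by TGF-beta (3.67), and Bmp4, a ligand (−2.74). Hedgehog, insulin-like growth factor and retinoic acid genes were called higher in 4 of 10, 5 of 13 and 5 of 14 cases, and lower in 1, 1 and 2, where 13.8% and 12.2% of all genes tested were. The 5 retinoic acid genes were 3 without lung iEC replicate 2, heart iEC replicate 1 or 2, lung EC replicate 1 or 2, or heart EC replicate 3. Among the IGF binding proteins Igfbp6 had an interaction of 4.30 and Igfbp5 one of 3.26. Of 22 tested glycolysis genes 2 were called higher and 1 lower, 13.6% together against 26.0% of all genes, with a median of 0.053. The remaining lists gave calls in both directions or few of them: venous genes 4 higher and 2 lower of 14, basement membrane genes 4 and 4 of 22, fatty acid and PPAR genes 4 and 4 of 17, p53 and CDK inhibitor genes 3 and 1 of 14, and antigen presentation genes 3 and 1 of 16. The shares of the p53 and antigen presentation genes called in either direction, 28.6% and 25%, are near the 26.0% of all genes tested, and those of the venous and basement membrane genes were 42.9% and 36.4%. Cardiomyocyte markers gave 4 and 0 of 8, pericyte markers 2 and 1 of 9, neural and Schwann markers 1 and 3 of 8, and adipocyte markers 0 and 1 of 2.

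Large interactions were also found outside these groups. Dpep1, a membrane dipeptidase, was higher in heart than in lung in both cell types, with 54.6, 45.1 and 44.8 CPM in lung iECs and 273, 330 and 292 CPM in heart iECs, against 1.56, 1.22 and 2.58 CPM in lung ECs and 277, 333 and 336 CPM in heart ECs (interaction 4.82 ± 0.229, adjusted p = 1.17e-10). Heart iECs and heart ECs overlapped, while lung ECs were far below lung iECs. Slc26a7, an anion transporter, had the largest negative value among calls with at least 10 CPM in a group that held without each sample, predicted genes left out, −8.58 ± 0.633 (adjusted p = 1.62e-08), with 1.47, 0.773 and 1.25 CPM in lung iECs and 14.3, 16.6 and 11.5 CPM in heart iECs, against 5.06, 4.40 and 3.96 CPM in lung ECs and 0.224, 0.165 and 0 CPM in heart ECs. Tmtc4, a mannosyltransferase of the endoplasmic reticulum, stood out in heart iECs, with 30.2, 32.9 and 20.8 CPM in lung iECs and 345, 398 and 328 CPM in heart iECs, against 11.1, 9.70 and 14.2 CPM in lung ECs and 8.92, 11.1 and 10.3 CPM in heart ECs (interaction −3.88 ± 0.241, adjusted p = 5.24e-09).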

How the data were processed

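RNA of 18 samples in 6 groups of 3 was sequenced by the authors, whose deposited table holds estimated counts (expected_counts) per gene, all whole numbers. Per the submitters' processing notes, Salmon, DESeq2 and the mm10 build were used; versions and how transcripts were summed are not given in the sources used here. Gene symbols came from GENCODE M21 (35422 of 35727 IDs). Members and gene lists were chosen with earlier results of these data known: 37 lists of 703 genes, 627 tested, 62 of them in more than 1 list.

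Counts were fitted in R 4.3.3 with edgeR 4.0.16 (filterByExpr on 6 groups, TMM, robust quasi-likelihood, 1 coefficient per group, all 18 samples, 12 residual degrees of freedom, common biological coefficient of variation 0.135). The tested genes held 99.97% of counts. P-values were adjusted by Benjamini-Hochberg over all genes of a contrast. The SE is the absolute log2 difference divided by the root of the F statistic. In a group with 3 counts or fewer, the fitted difference depends on the prior count and is no bound; 3 counts over a group equal 0.043 to 0.0549 CPM, and such floors cover counting error only. CPM use TMM-scaled totals. Positions used log2 CPM with a prior count of 2.

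Genes named were the 12 with the largest interaction per direction and the 4 per class and direction, among calls with at least 10 CPM in a group that held without each sample (2682 of 3864 calls held, whatever their level), leaving out clones, pseudogenes and predicted genes, up to 4 called members per list and 1 in the opposite direction with at least 5 CPM, and Sox17 and Erg; other list members are given as values. Alternatives were DESeq2 1.42.0, RLE scaling, other filters, a fit to 12 samples, a replicate block, glmTreat and each sample left out; a fit without replicate 3 of both lung iECs and lung ECs was added after the data were seen. Promoters are from RefSeq. Some members of the lists are counted but not reported by name here.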

Additional observations from a re-analysis of the deposited data

Results flagged for a closer look

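The interaction is itself a test of whether the organ difference differs between iECs and ECs, so every call in it qualifies: 3864 genes, including each gene described above as called. The values below are log2 interactions of the 24 named for their size, each of which held when any 1 of the 12 iEC and EC samples was left out.

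Among genes that leaned more to the lung in iECs, the values were 8.6 for Cxcl5, 8.0 for Saa3 and 5.82 for Steap4, an iron reductase. Replicate 3 was the highest lung iEC and the lowest lung EC for all 3. In Saa3 lung iEC replicate 2 lay far below the other lung iECs. Serpina3c and Serpina3n stood at 7.14 and 5.59, within a family whose reads may be split with uncertainty. Plet1, a placental and epithelial surface protein, was at 6.30 with 1 count over the heart iECs, and Sucnr1, the succinate receptor, at 6.18 with 0 counts over the lung ECs, so both fitted values depend on the prior count. Sez6l was at 5.74, with 3 counts over the heart iECs, the mesothelial and epithelial factor Bnc1 at 5.55, the sphingosine receptor S1pr3 at 5.48, Ednrb at 5.47 and Lgi2 at 5.44.

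Among genes that leaned more to the heart in iECs, Slc26a7 stood at −8.58, Meox1 at −6.70, Nat8l at −6.10, Dkk2 at −5.95, Esm1 at −4.89 and Wfdc18 at −4.73, and the desmosome gene Dsp at −4.67. Few counts affect 5 others, whose fitted values depend on the prior count. These are the arginase gene Arg1 at −7.21 (1 count over the heart ECs), Tal1 at −7.03 (1 over the lung iECs), Psg22 at −6.05 (2 over the lung iECs, and of a family of near-identical genes), Gimap5 at −5.35 (0 over the lung iECs) and Apoc2 at −4.90 (2 over the heart ECs).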

How the results depend on the processing

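Of 159 named interactions, 63 lost their call in at least 1 of 20 other settings and 159 kept direction and call with DESeq2 and with RLE scaling, 152 with the replicate block and 141 in the fit to 12 samples; 99 passed glmTreat against a log2 difference of 1. None changed sign in these settings. The counts of 2049 higher and 1815 lower stayed within 1.5 times under every setting but glmTreat, which gave 415 and 299, by construction. Without single samples they ranged from 1757 to 2170 and from 1472 to 1827. DESeq2 gave 2338 and 1962. Same-numbered samples did not deviate together (r from −0.398 to 0.117 over 45 pairs, 1 above 0.1). Some differently numbered ones did. For lung iEC replicate 2 with lung EC replicate 3 r was 0.406. For lung iEC replicate 3 with lung EC replicate 2 it was 0.32. No label gives the numbers a meaning, so they were not used as pairs. With the replicate block the counts were 1936 higher and 1702 lower. The correlation of organ differences depended most on low-count genes. With ECs (0.575) it was 0.343 without a filter, 0.647 at 5 CPM or more, 0.594 in the fit to 12 samples, 0.624 over genes called in either and 0.551 without replicate 3 of both lung iECs and lung ECs, and 0.537 to 0.564 without single samples. With fibroblasts (0.574) it was 0.343, 0.661, 0.631 over genes called in either and 0.565 with DESeq2, and 0.537 to 0.563 without single samples. Fits with fewer samples kept other genes under the same filter. The position difference of iECs (0.541) ranged from 0.522 to 0.603. Antigen presentation genes called higher numbered 3, against 7 without lung iEC replicate 2 and 1 without replicate 3 of both lung iECs and lung ECs. Single calls in the minor direction of a list came and went when 1 sample was left out. Depth limits genes with few counts in a group, where fitted differences depend on the prior count.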
